A study of Mus musculus with 12 samples.

Results

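The 38 genes described here are markers of fibroblasts and of pericytes, collagens left out, read in basal and luminal epithelial cells isolated from the mouse mammary gland. They were taken by symbol from a table of read counts for 27179 genes, and all 38 were found. The expression filter kept 37 of them among 14903 tested genes, and the exception was the pericyte marker Higd1b. Basal and luminal epithelial cells came from female mice, and each of the 4 groups had 3 libraries labelled as biological replicates. Control mice carried Foxp1(fl/fl), a floxed Foxp1 gene with no Cre, and the knockouts carried MMTV-cre/Foxp1(fl/fl). MMTV-cre is a recombinase driven by the promoter of mouse mammary tumour virus, which is active mainly in mammary epithelium. All 4 groups carried the floxed alleles and only the knockouts carried Cre, so the deletion of Foxp1 and the presence of Cre cannot be told apart.

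Fibroblasts fill the connective tissue around the mammary ducts and secrete its matrix. They carry the receptor Pdgfra, and they make proteoglycans such as decorin, the microfibrils and elastic fibres of the gland, and enzymes that cross-link or cut that matrix. Pericytes wrap small blood vessels, depend on the receptor Pdgfrb and carry contractile and channel proteins. Neither cell type is epithelial, so in an epithelial fraction these genes are commonly read as a sign of stromal RNA. Several of them, Sparc and Vim among them, are also made by the contractile basal cells of the mammary epithelium.

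Libraries held 9769361 to 11133908 counts, except luminal knockout-labelled replicate 3 with 15449513. Levels are CPM, counts scaled to a common library size, and Foxp1 itself stood at 160 to 221 CPM among basal controls beside 193 to 283 CPM in the basal knockouts. In luminal cells it stood at 61.9 to 82.2 CPM among controls beside 150 to 161 CPM in the knockouts (log2 fold 1.07, SE 0.19, adjusted p = 0.0161). The count covers the whole gene, the parts outside the deletion included, and it was not lower with the knockout label in either cell type. Such a count cannot show whether the floxed part was lost, so the deletion was not checked here. The libraries are therefore called knockout-labelled, and all directions given rest on those labels. Myoepithelial and basal markers summed to 19900 to 27900 CPM in basal libraries and to 358 to 1330 CPM in luminal ones, and the 12 luminal markers to 1270 to 2630 and 11300 to 22100 CPM, so each list was highest in the fraction of that name. The salivary transcript Bpifa2 took 0.636% to 6.7% of counts in luminal libraries and 0.0113% to 0.342% in basal ones, and its part in the results below was not tested. In luminal control replicate 3, 33 of the 37 tested markers stood above both other luminal controls. That library was also the highest luminal control in the basal and myoepithelial sum, at 1230 CPM beside 483 and 358 CPM. Its endothelial markers summed to 219 CPM beside 112 and 135 CPM. Its macrophage markers went the other way, at 257 CPM beside 264 and 284 CPM. In luminal knockout-labelled replicate 1, 31 of 37 stood below both others. Adjusted p-values throughout are Benjamini-Hochberg values of edgeR's quasi-likelihood test over all 14903 genes, and a gene is called at an adjusted p under 0.05.

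**Figure D1:**
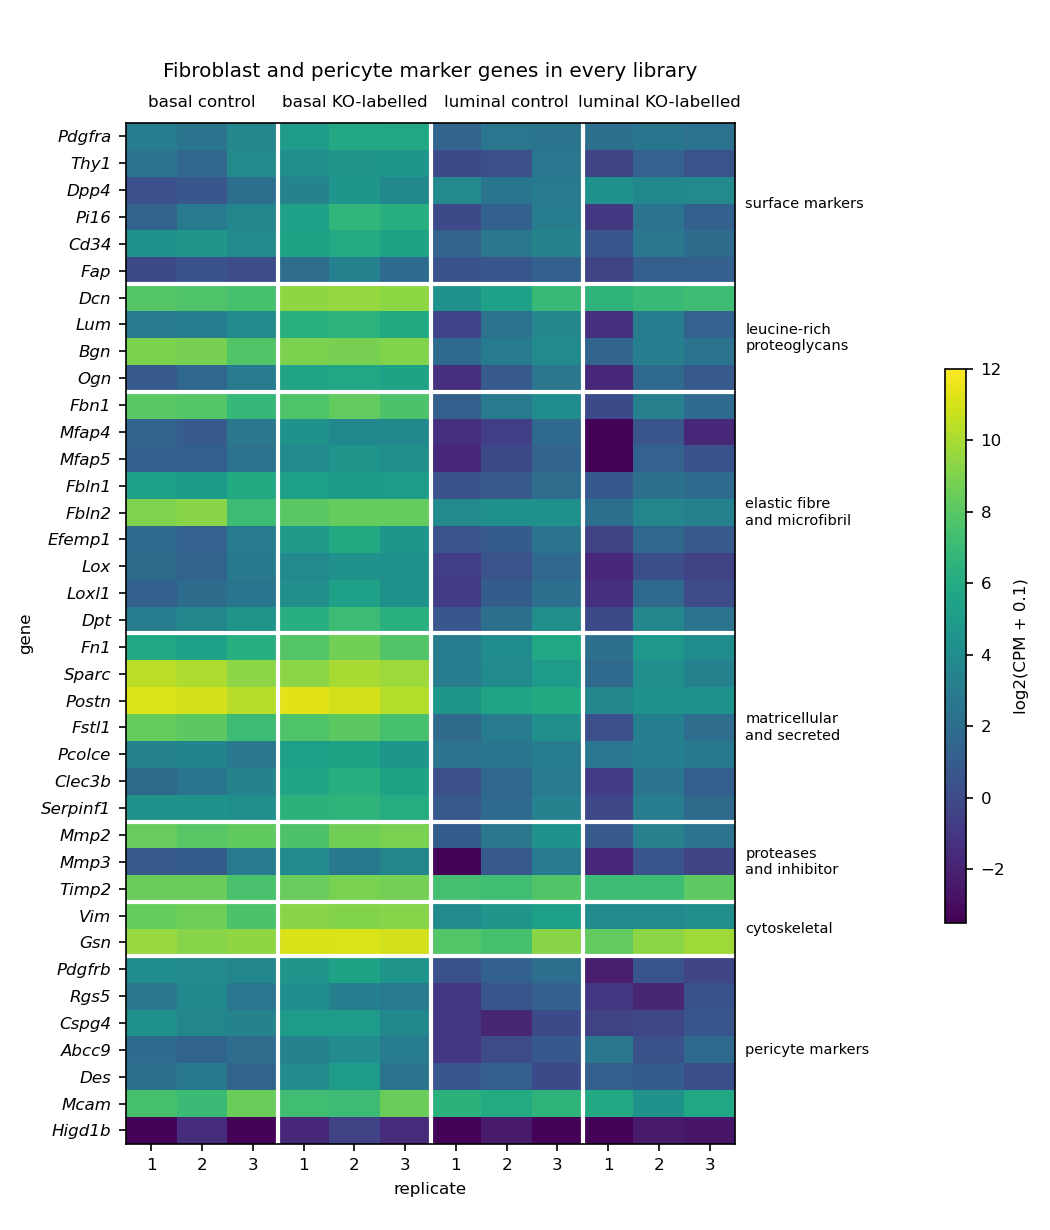
Level of each of the 38 genes in each of the 12 libraries, as log2(CPM + 0.1), with genes in rows by role and replicates 1 to 3 of each group in columns. Postn, Sparc and Gsn were bright in all 6 basal libraries, while Lum, Ogn, Pi16 and Dpt were brighter in all 3 basal knockout-labelled libraries than in any basal control.

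The controls were compared first, to see where these genes were found before any difference in genotype. In basal controls the markers spanned a wide range of levels per kilobase of gene length. Postn, periostin, a matricellular protein, was the highest at 574 CPM per kilobase, above 99.5% of tested genes, followed by Sparc at 445 and by Gsn, the actin-severing protein gelsolin, at 230. Pdgfra, the receptor that defines fibroblasts, stood at 1.32 CPM per kilobase, above only 19.8% of tested genes. Dpp4, a surface peptidase, stood at 0.36 and Higd1b at 0.121 CPM per kilobase.

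Of the 37 tested markers, 17 were called lower and 1 higher in luminal than in basal controls, where 16.8% of all tested genes were called lower and 16.3% higher. The median log2 fold of the markers was -1.46, against 0.04 over all tested genes. This test did not use the pairing of libraries by replicate number. With that number as a block, the calls over all genes went from 4942 to 6528. Postn measured 2350, 2050 and 1270 CPM among basal controls (replicates 1 to 3 in order) beside 25.9, 47.4 and 59.2 CPM among luminal ones (log2 fold -5.42, SE 0.45, adjusted p = 9.25e-06). The groups stood far apart. Sparc, osteonectin, was at 1330, 1090 and 645 CPM against 8.04, 14.3 and 32.3 CPM (log2 fold -5.81, SE 0.69). Vim, the intermediate filament vimentin, was at 318, 377 and 197 CPM against 14.3, 24.0 and 38.2 CPM (log2 fold -3.54, SE 0.35). In bulk libraries such as these, fewer cells of a type and less RNA per cell cannot be told apart.

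Altogether 9 markers were over 16-fold lower in luminal than in basal controls: Postn, Sparc, biglycan (Bgn), fibrillin 1 (Fbn1), the fibulins Fbln1 and Fbln2, Fstl1, Mmp2 and the proteoglycan Cspg4. Their levels were 10.6 to 2350 CPM in basal controls and 0.185 to 59.2 CPM in luminal controls. This group was formed after the values were seen and carries no test. Among the other markers, several lay closer together. Pdgfra was at 8.18, 5.53 and 12.9 CPM among basal controls beside 2.80, 5.82 and 5.42 CPM in luminal controls, groups that overlap (log2 fold -0.92, adjusted p = 0.0718). Lum, lumican, and Ogn, osteoglycin, had log2 folds of -0.71 and -0.57, Dpt, dermatopontin, of -0.84, and Pi16 of -0.97, and none of these was called. Dpp4 was the marker called higher in luminal controls, at 13.6, 5.63 and 7.63 CPM against 1.14, 1.52 and 4.15 CPM (log2 fold 1.97, SE 0.53, adjusted p = 0.0137).

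Pericyte markers were called lower in luminal controls for 5 of 6 tested, where 16.8% of all tested genes were called lower. Pdgfrb, the platelet-derived growth factor receptor of pericytes, was at 16.1, 15.2 and 12.1 CPM in basal and at 1.22, 2.40 and 4.22 CPM among luminal controls (log2 fold -2.47, SE 0.54, adjusted p = 0.00484). Rgs5, a regulator of G protein signalling, was at 6.53, 13.3 and 5.81 against 0.374, 1.48 and 2.31 CPM (log2 fold -2.62, SE 0.68, adjusted p = 0.0119). Both sets of groups were apart. Cspg4 (NG2) had a log2 fold of -4.89, the channel subunit Abcc9 of -1.83, and the adhesion molecule Mcam of -1.46, while desmin (Des) at -1.62 was not called (adjusted p = 0.0615). Higd1b had 3 counts in all over the basal controls and 1 over the luminal controls.

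The genotypes were then compared within basal cells. Most fibroblast markers had higher levels in all 3 knockout-labelled libraries, while Postn and Sparc, the highest of the list per kilobase in basal controls, had groups that overlap. Of 37 tested markers, 3 were called higher and 0 lower, where 0.611% of all tested genes were called higher and 0.0604% lower. These 3 were Pdgfra, Dpp4 and Pcolce. The lowest knockout-labelled library stood above the highest control for 23 of 37 markers, against 8.15% of all tested genes, and 0 markers were apart in the other direction, against 4.21%. At an unadjusted p under 0.05 there were 22 higher, against 6.58%, and DESeq2 called 15 higher, against 2.37% of the genes fitted. In all, 32 of 37 log2 folds were above 0, against 48.8% of tested genes, and 24 were above 1, against 6.46%. The median log2 fold was 1.71, beside -0.01 over all tested genes. Leaving out basal control replicate 1 or basal knockout-labelled replicate 2 left 0 markers called, and leaving out luminal control replicate 3 left 5, while the median stayed between 1.57 and 1.76 on leaving out any single library.

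Surface markers of fibroblasts stood apart between genotypes for all 6 members in basal cells, all higher, where 8.15% of tested genes were apart and higher. Pdgfra, the receptor for platelet-derived growth factor on fibroblasts (chromosome 5, 75151322 to 75198206 on GRCm38), was at 8.18, 5.53 and 12.9 CPM among controls (replicates 1 to 3 in order) beside 31.6, 57.4 and 52.5 CPM in those labelled knockout. Every knockout-labelled library was above every control, and Pdgfra rose, with a log2 fold of 2.41 (SE 0.36, adjusted p = 0.0138). Dpp4, which marks a fibroblast subset with Pi16 (chromosome 2, 62330073 to 62412315), rose from 1.14, 1.52 and 4.15 CPM to 10.9, 25.3 and 13.1 CPM (log2 fold 2.85, SE 0.53, adjusted p = 0.0395). Pi16, a secreted peptidase inhibitor, was at 2.59, 6.96 and 12.1 CPM among controls beside 41.6, 103 and 73.5 CPM among knockout-labelled libraries (log2 fold 3.33, SE 0.84, adjusted p = 0.122). Its groups were apart although it was not called. Cd34, a sialomucin of fibroblasts and endothelium, was at 20.8, 23.6 and 15.2 CPM against 45.7, 62.6 and 43.1 CPM (log2 fold 1.35, SE 0.48, adjusted p = 0.332). Thy1, the surface glycoprotein CD90, was at 5.49, 2.94 and 14.9 CPM against 17.6, 24.1 and 24.6 CPM (log2 fold 1.5, SE 0.71, adjusted p = 0.591). Fap, fibroblast activation protein, was at 1.03 ± 0.211 CPM in controls and 5.86 ± 3.53 CPM in knockout-labelled libraries (SD, n = 3, log2 fold 2.49, adjusted p = 0.0734).

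The sequences upstream of the 3 called genes are shown because these are the markers on which the test rests. They come from RefSeq on GRCm38.p6, read on the strand of the gene, and bases inside annotated GENCODE exons were left out. The start sites of that table are 75152251 for Pdgfra, 62412231 for Dpp4 and 137611404 for Pcolce. Each lies inside the RefSeq span of the gene, so the stretches overlap those spans, and for Pdgfra the stretch lies wholly within it. The stretches are chr5:75152001-75152250 (plus strand) for Pdgfra, chr2:62412232-62412481 (minus strand) for Dpp4 and chr5:137611488-137611654 (minus strand) for Pcolce. Capitals mark the match to a TATA motif in Dpp4.
Pdgfra: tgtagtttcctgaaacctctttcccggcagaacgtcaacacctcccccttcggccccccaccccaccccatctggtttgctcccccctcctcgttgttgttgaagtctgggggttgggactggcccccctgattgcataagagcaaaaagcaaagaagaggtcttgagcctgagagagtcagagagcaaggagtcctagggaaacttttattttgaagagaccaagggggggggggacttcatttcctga
Dpp4: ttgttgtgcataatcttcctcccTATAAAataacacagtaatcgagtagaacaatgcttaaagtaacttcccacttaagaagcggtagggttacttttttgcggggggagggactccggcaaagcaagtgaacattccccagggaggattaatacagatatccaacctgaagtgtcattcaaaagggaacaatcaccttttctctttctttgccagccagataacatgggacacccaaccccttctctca
Pcolce: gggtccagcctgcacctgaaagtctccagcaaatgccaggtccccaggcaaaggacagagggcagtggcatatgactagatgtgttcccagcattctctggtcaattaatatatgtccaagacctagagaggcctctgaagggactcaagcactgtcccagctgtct
Of the 38 markers, 25 had an entry in the promoter table. The 250 bases before each start were searched on both strands for 4 motifs: the forkhead core TGTTTAC, which is bound by the family of Foxp1, the AP-1 site TGANTCA, the TATA motif TATAAA and the GC box GGGCGG. The forkhead core was in 0 of 25 marker windows and in 3.54% of the 27025 genes with a window. The AP-1 letters were in 2 (Efemp1 and Mmp3), beside 7.82% of genes, and the TATA letters in 5 (Dpp4, Mmp3, Ogn, Postn and Vim), beside 14.3%. The GC box was in 13 of 25, beside 35.4% of genes. Pcolce is one of these, through bases of its window that were left out of the 167 printed. A match is a description of these letters and not a bound site.

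Among the small leucine-rich proteoglycans, which bind collagen fibrils and set their spacing, 3 of 4 stood apart between genotypes in basal cells. All 3 were higher, where 8.15% of tested genes were apart and higher. Dcn, decorin, was at 244, 214 and 183 CPM among basal controls beside 701, 739 and 657 CPM among knockout-labelled libraries (log2 fold 1.71, SE 0.48, adjusted p = 0.163). Its libraries agreed closely within each group. Ogn was at 1.76, 3.12 and 7.29 CPM against 45.9, 52.9 and 43.2 CPM (log2 fold 3.54, SE 0.88, adjusted p = 0.116), which was the largest log2 fold of the 37. Lum was at 7.36, 8.03 and 14.9 CPM against 80.3, 92.3 and 59.6 CPM (log2 fold 2.94, SE 0.90, adjusted p = 0.212). Bgn differed from these, at 502, 457 and 219 CPM in controls and 502, 457 and 526 CPM in knockout-labelled libraries, groups that overlap (log2 fold 0.33, adjusted p = 0.981).

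**Figure D2:**
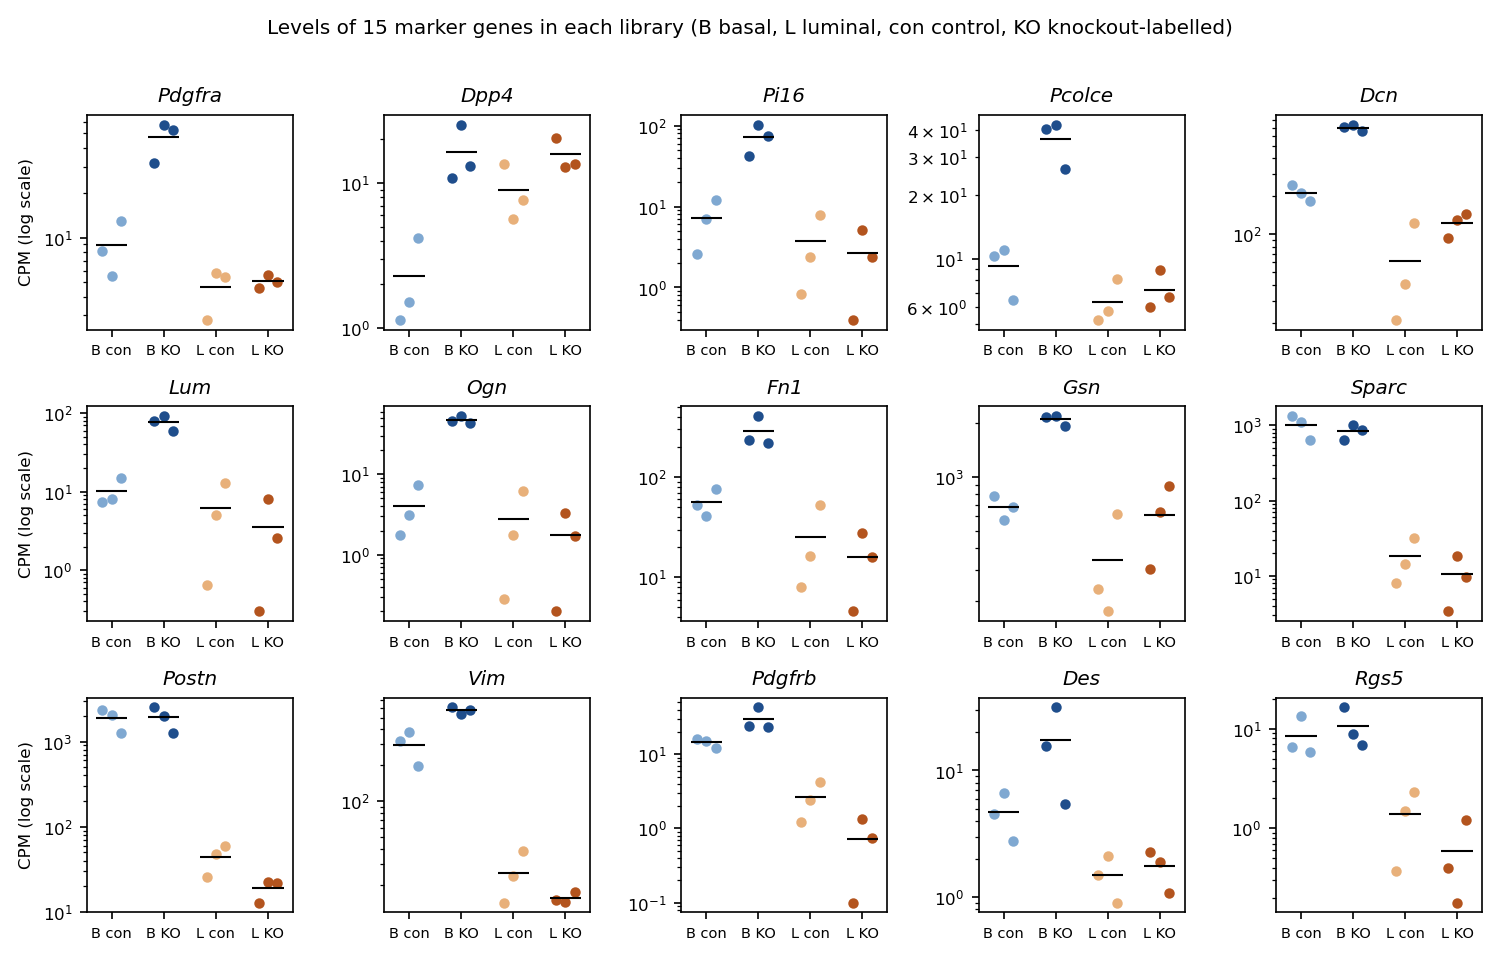
CPM on a log scale of 15 of the genes in each library, with points for replicates and bars for the group mean. Basal knockout-labelled points lay above all basal controls for Pdgfra, Dpp4, Pi16, Pcolce, Dcn, Lum, Ogn, Fn1, Gsn, Vim and Pdgfrb, and overlapped them for Sparc, Postn, Des and Rgs5.

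Proteins of microfibrils and elastic fibres had 0 of 9 called in basal cells, 6 of 9 higher at an unadjusted p under 0.05 and 6 of 9 with groups apart. The shares over all tested genes were 6.58% higher at that p and 8.15% apart and higher. Efemp1, fibulin 3, was at 3.63, 2.5 and 7.47 CPM among controls beside 29.8, 59.0 and 24.7 CPM among knockout-labelled libraries (log2 fold 3.06, SE 0.65, adjusted p = 0.0668). Dpt was at 8.29, 12.2 and 23.1 CPM against 76.0, 138 and 81.7 CPM (log2 fold 2.76, SE 0.87, adjusted p = 0.238). The lysyl oxidases Lox and Loxl1, which cross-link elastin and collagen, had log2 folds of 2.04 and 2.73, and the microfibril proteins Mfap4 and Mfap5 of 2.14 and 2.58. Fbn1, the main protein of the microfibril, lay outside this pattern at 259, 244 and 111 CPM against 209, 304 and 204 CPM (log2 fold 0.22, SE 0.67, adjusted p = 0.99). Fbln2 was at 517, 616 and 140 CPM against 257, 320 and 320 CPM (log2 fold -0.50), and Fbln1 had a log2 fold of -0.36. Control replicate 3 was the lowest of the 6 basal libraries for Fbn1 and Fbln2.

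Among matricellular and secreted proteins, Pcolce, which speeds the cutting of procollagen, was the 1 of 7 called in basal cells (chromosome 5, 137605105 to 137611522). It rose from 10.4, 11.1 and 6.46 CPM to 40.3, 42.4 and 26.3 CPM (log2 fold 1.97, SE 0.29, adjusted p = 0.0136). Clec3b, tetranectin, and Serpinf1, an inhibitor of vessel growth, had log2 folds of 3.07 (SE 0.74, adjusted p = 0.107) and 2.03 (SE 0.66, adjusted p = 0.249). Fn1, fibronectin, was at 52.5, 41.1 and 76.9 CPM among controls beside 235, 409 and 219 CPM among knockout-labelled libraries (log2 fold 2.34, SE 0.69, adjusted p = 0.186). These 4 of the 7 genes had groups apart, all higher, where 8.15% of tested genes were apart and higher. Sparc was at 1330, 1090 and 645 CPM against 630, 1010 and 857 CPM (log2 fold -0.29, SE 0.56). Postn was at 2350, 2050 and 1270 CPM against 2520, 1990 and 1260 CPM (log2 fold 0.02, SE 0.37), a difference smaller than the spread between replicates. Fstl1 had a log2 fold of -0.14.

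The matrix proteases and the cytoskeletal members divided in the same comparison. The gelatinase Mmp2 and the inhibitor Timp2 had log2 folds of 0.28 and 0.45 with groups that overlap. Mmp3, stromelysin 1, was at 1.76, 1.96 and 7.57 CPM among controls beside 14.9, 6.71 and 12.2 CPM in knockout-labelled libraries, which overlap through control replicate 3 (log2 fold 1.57, SE 1.02, adjusted p = 0.834). Gsn was at 783, 574 and 675 CPM against 2180, 2200 and 1930 CPM (log2 fold 1.64, SE 0.47, adjusted p = 0.171). Vim was at 318, 377 and 197 CPM against 608, 533 and 582 CPM (log2 fold 0.95, SE 0.32, adjusted p = 0.272). Neither was called, and both had groups apart.

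Pericyte markers had 0 of 6 called in basal cells, 2 higher at an unadjusted p under 0.05 and 2 with groups apart, Pdgfrb and Abcc9. Over all tested genes 6.58% were higher at that p and 8.15% were apart and higher. The median log2 fold of the 6 was 0.94. Pdgfrb, which fibroblasts also carry, was at 16.1, 15.2 and 12.1 CPM among controls beside 23.7, 42.9 and 23.1 CPM among knockout-labelled libraries (log2 fold 1.05, SE 0.50, adjusted p = 0.59). Abcc9, a subunit of the potassium channel of vascular mural cells, was at 3.63, 2.77 and 3.97 CPM against 10, 15.7 and 8.14 CPM (log2 fold 1.71, SE 0.56, adjusted p = 0.256). Des was at 4.56, 6.69 and 2.77 CPM against 15.7, 31.5 and 5.43 CPM (log2 fold 1.91, SE 0.58, adjusted p = 0.206), and its groups overlap. Rgs5, the marker most used for pericytes, was at 6.53, 13.3 and 5.81 CPM against 16.4, 8.86 and 6.94 CPM (log2 fold 0.33, SE 0.61, adjusted p = 0.986). Cspg4 and Mcam had log2 folds of 0.83 and -0.04. Higd1b had 3 counts over the controls and 11 over the knockout-labelled libraries, a ratio of 3.84 with an exact 95% counting interval of 1.01 to 21.4, which covers counting error only.

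**Figure D3:**
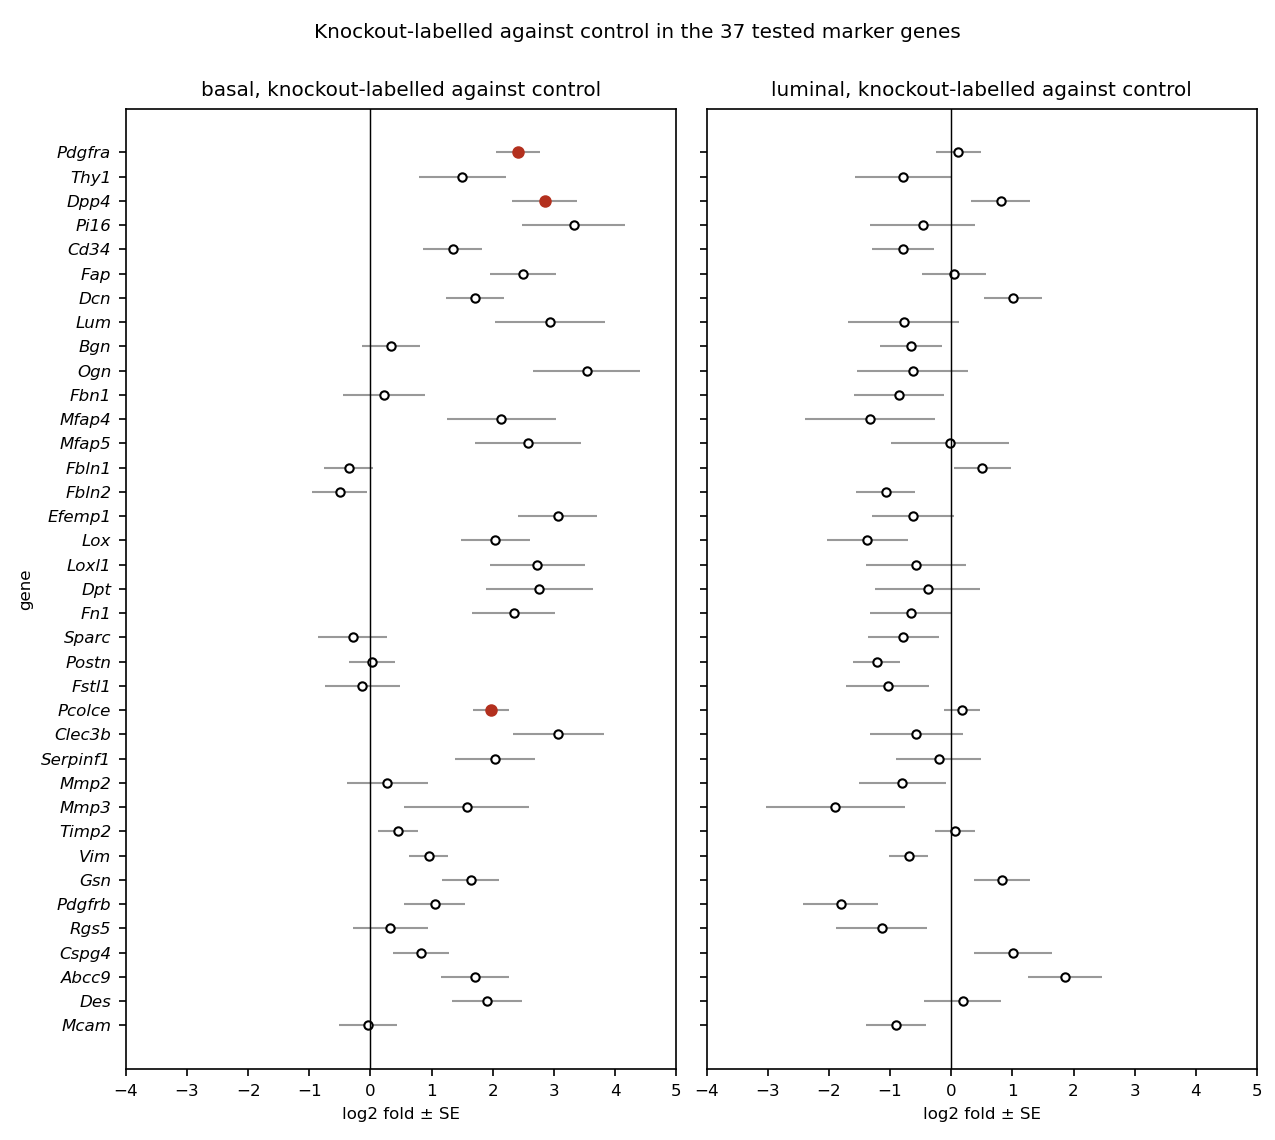
Log2 fold with its standard error of each tested marker, knockout-labelled against control, in basal cells on the left and luminal cells on the right. Filled points are called at an adjusted p under 0.05. They are Pdgfra, Dpp4 and Pcolce in basal cells, and there are none in luminal cells.

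The 9 markers over 16-fold lower in luminal than in basal controls and the other 28 tested markers are set side by side here. Among the 9, the basal log2 folds between genotypes ran from -0.50 to 0.83 and 0 had groups apart. For the other 28 they ran from -0.04 to 3.54 with a median of 2.04, and 23 had groups apart. Both comparisons use the same basal controls, so the values are a description without a test.

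In luminal cells the genotypes were compared in the same way, and no marker was called there. The edgeR test called 0 of 37, against 2.21% of tested genes higher and 0.819% lower, and at an unadjusted p under 0.05 there were 1 higher and 3 lower, against 9.23% and 7.99%. DESeq2 called 3, Abcc9 higher and Pdgfrb and Postn lower, where it called 4.8% of the genes fitted higher and 2.51% lower, so these counts lie near the background. The median log2 fold was -0.63, beside -0.03 over all tested genes, with 11 of 37 above 0, against 47.4% of tested genes. Luminal control replicate 3 decided that sign: without it the median was 0.33 and 25 of 37 were above 0. With replicate number as a block, 0 markers were called again, while the calls over all genes went from 451 to 1097.

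Surface markers gave little difference in luminal cells. Pdgfra was at 2.80, 5.82 and 5.42 CPM among luminal controls beside 4.58, 5.63 and 5 CPM among knockout-labelled libraries (log2 fold 0.12, SE 0.37, adjusted p = 0.916). Dpp4 was at 13.6, 5.63 and 7.63 CPM against 20.6, 13.0 and 13.6 CPM (log2 fold 0.81, SE 0.49, adjusted p = 0.437). Pi16 was at 0.841, 2.40 and 7.93 CPM against 0.398, 5.18 and 2.40 CPM (log2 fold -0.47, SE 0.86). All 3 overlapped between genotypes, and Pi16 differed more within groups than between them. Thy1 measured 0.841, 1.11 and 5.83 CPM among controls beside 0.697, 2.5 and 1.27 CPM among knockout-labelled libraries (log2 fold -0.78), and Cd34 2.62, 6.28 and 10.8 CPM among controls beside 1.49, 6.08 and 3.8 CPM among knockout-labelled libraries (log2 fold -0.78). Luminal control replicate 3 was the highest of the 6 for both. Fap had a log2 fold of 0.04.

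Matrix genes of the luminal libraries mostly lay a little lower with the knockout label, with few groups apart. Postn was at 25.9, 47.4 and 59.2 CPM among controls beside 12.8, 22.3 and 21.8 CPM among knockout-labelled libraries (log2 fold -1.22, SE 0.38, adjusted p = 0.119). Fbln2 was at 14.8, 19.3 and 19.3 CPM against 4.18, 11.4 and 9.67 CPM (log2 fold -1.07, SE 0.48, adjusted p = 0.281). Those 2 and Mcam, the adhesion molecule (log2 fold -0.90, adjusted p = 0.377), were the 3 markers with groups apart, all lower, where 12.3% of tested genes were apart in that direction and 13.1% in the other. Dcn was at 21.1, 40.9 and 122 CPM against 94.0, 131 and 144 CPM (log2 fold 1.0, SE 0.47, adjusted p = 0.309). Without luminal control replicate 3, where Dcn was highest among controls, Dcn was called higher (log2 fold 2.02). Gsn was at 235, 176 and 617 CPM against 304, 633 and 889 CPM (log2 fold 0.83, SE 0.46). Without luminal control replicate 3 the luminal log2 folds of Thy1, Pi16, Lum, Ogn, Fbn1, Efemp1, Dpt and Fn1 were above 0 and that of Des below 0, the opposite sign in each case. Lum measured 0.654, 5.08 and 12.9 CPM among controls beside 0.299, 7.96 and 2.53 CPM among knockout-labelled libraries (log2 fold -0.78), and Dpt 1.5, 4.53 and 18.5 CPM among controls beside 0.897, 12.5 and 5.2 CPM among knockout-labelled libraries (log2 fold -0.39). Fbn1 measured 2.15, 7.39 and 16 CPM among controls beside 0.897, 9.48 and 3.67 CPM among knockout-labelled libraries (log2 fold -0.85), and Fn1 7.94, 16.3 and 52.2 CPM among controls beside 4.58, 27.4 and 16.1 CPM among knockout-labelled libraries (log2 fold -0.66). Sparc measured 8.04, 14.3 and 32.3 CPM among controls beside 3.39, 18.5 and 9.8 CPM among knockout-labelled libraries (log2 fold -0.78), and Vim 14.3, 24 and 38.2 CPM among controls beside 15, 14.6 and 17.5 CPM among knockout-labelled libraries (log2 fold -0.70). Luminal control replicate 3 was the highest of the 6 luminal libraries for each of these 6 genes, and knockout-labelled replicate 1 was the lowest for all but Vim. Ogn and the protease Mmp3 had log2 folds of -0.63 and -1.89.

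Pericyte markers of the luminal libraries had log2 folds on both sides of 0, none of them called. Pdgfrb was at 1.22, 2.40 and 4.22 CPM among controls beside 0.0996, 1.34 and 0.733 CPM among knockout-labelled libraries (log2 fold -1.81, SE 0.61, adjusted p = 0.149). Abcc9 was at 0.374, 0.924 and 1.61 CPM against 6.08, 1.16 and 3.33 CPM (log2 fold 1.85, SE 0.61, adjusted p = 0.134). Both pairs of groups overlapped. Rgs5 measured 0.374, 1.48 and 2.31 CPM among controls beside 0.398, 0.179 and 1.2 CPM among knockout-labelled libraries (log2 fold -1.14), and the log2 fold of Cspg4 was 1.01. Higd1b had 1 count over the controls and 2 over the knockout-labelled libraries.

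The difference between the luminal and the basal effect was tested directly as an interaction. No marker of the 37 was called, where 0.181% of tested genes were called lower and 0.0939% higher. At an unadjusted p under 0.05, 20 were lower in luminal than in basal cells and 0 higher, against 5.56% and 4.29% of tested genes, and DESeq2 called 9, all lower, against 1.37% of the genes fitted. With replicate number as a block, 0 were called again. The median log2 difference was -2.04, beside -0.02 over all tested genes, and it was -1.26 without luminal control replicate 3. Pdgfra had a log2 difference of -2.29 (SE 0.51, adjusted p = 0.092), and without basal control replicate 3 it was called at -2.67. Pcolce had -1.79 (SE 0.41, adjusted p = 0.0955), Efemp1 -3.69 (SE 0.93, adjusted p = 0.126) and Lox -3.41 (SE 0.87, adjusted p = 0.13). Pdgfrb and Vim had -2.86 (SE 0.79) and -1.65 (SE 0.45). Dcn, at -0.70 (SE 0.66), was among those with the smallest difference. It was thus not shown by this test that the genotype effect on any single marker differed between the cell types.

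Among knockout-labelled libraries, luminal cells stood below basal cells for nearly every marker. Of 37 tested markers, 36 were called lower and 0 higher, where 21.4% of tested genes were called lower and 19.2% higher, and the exception was Dpp4 (log2 fold -0.07, SE 0.48). The median log2 fold was -4.16, beside 0.03 over all tested genes. Pdgfra was at 31.6, 57.4 and 52.5 CPM in basal and at 4.58, 5.63 and 5 CPM in luminal knockout-labelled libraries (log2 fold -3.21, SE 0.38, adjusted p = 7.08e-05). Lum, Ogn and Pi16 had log2 folds of -4.42, -4.74 and -4.76 here. The same 3 genes had -0.71, -0.57 and -0.97 in the controls. The gap between the 2 values of each gene is the interaction tested above. It was called for none of the 3 (adjusted p = 0.301, 0.218 and 0.255 in edgeR).

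Libraries within a group also differed from each other in these genes. Basal knockout-labelled replicate 2 held the highest level among the 6 basal libraries for 24 of 37 markers. Basal control replicate 3 stood above both other controls for 18 markers and below both for 16. It was high for Pi16, Lum, Ogn and Dpt and low for Bgn, Fbn1, Fbln2, Sparc, Postn and Vim. Across luminal controls, the summed level of the 38 genes was 642, 648 and 1470 CPM in replicates 1, 2 and 3, and in luminal knockout-labelled libraries it was 688, 1170 and 1530 CPM. The basal sums were 7760, 6880 and 4790 CPM in controls and 9550, 10400 and 8730 CPM in knockout-labelled libraries. The basal groups were apart in this sum and the luminal groups were not. Gsn decided the first: without it the basal sums were 6970, 6300 and 4120 CPM beside 7360, 8160 and 6800 CPM, and the groups overlap.

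Other genes of fibroblasts and pericytes were read from a further pair of lists. Of 29 tested fibroblast genes outside the 38, 2 were called higher and 0 lower in basal cells, with a median log2 fold of 1.34 and 16 with groups apart, where the shares over all tested genes were 0.611% called higher and 8.15% apart and higher. Igf1, the insulin-like growth factor made by stroma, rose from 0.932, 2.14 and 1.29 CPM to 14.7, 17.8 and 12.3 CPM (log2 fold 3.34, SE 0.60, adjusted p = 0.0361). Scara5, a scavenger receptor, rose from 2.38, 2.5 and 5.54 CPM to 13.6, 29.4 and 16.9 CPM (log2 fold 2.52, SE 0.38, adjusted p = 0.0137). In luminal cells 1 was called higher, Ly6c1 (log2 fold 2.97, SE 0.46, adjusted p = 0.00817), and 1 lower, the chemokine receptor Ackr3 (log2 fold -1.22, SE 0.28, adjusted p = 0.0415), with a median of -0.15. Over all tested genes 2.21% were called higher and 0.819% lower in that comparison, so these luminal counts lie near the background. For Pcolce2 and Scara5 the interaction was called, at log2 differences of -5.29 (SE 0.92, adjusted p = 0.0474) and -3.23 (SE 0.51, adjusted p = 0.0322). Luminal controls held Scara5 at 30.8 to 41.9 CPM, above every basal library. The fibroblast transcription factors Twist1 and Twist2 had basal log2 folds of 1.96 and 2.03, not called, and Prrx1 of 0.43. Twist2 had only 4, 5 and 5 counts in the basal controls. Of the other transcription factors in that list, Osr1, Meox1 and Tcf4 had basal groups that overlap. Meox2 was apart and higher, at 0.932, 2.14 and 1.01 CPM beside 5.26, 3.94 and 3.36 CPM. Of 11 tested further pericyte genes, 0 were called in either cell type. At an unadjusted p under 0.05, 3 were higher in basal cells and 0 in luminal cells, against 6.58% and 9.23% of tested genes, and their median log2 folds were 0.71 and -0.37. DESeq2 counts for these further lists were not computed.

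Markers of other cell types were read beside these results. The 12 endothelial markers summed to 105 to 232 CPM in basal controls and 145 to 169 CPM in basal knockout-labelled libraries, with 0 called, 1 higher and 1 lower at an unadjusted p under 0.05 (6.58% of tested genes were higher) and a median log2 fold of 0.08. In luminal cells they summed to 112 to 219 CPM in controls and 80.8 to 117 CPM in knockout-labelled libraries, with 0 called, 7 of 12 lower at an unadjusted p under 0.05, against 7.99% of tested genes, and a median of -1.23. None of these 12 was at 0 in any library, and their part in the luminal values of the fibroblast and pericyte markers was not tested. Macrophage markers summed to 82.5 to 95.7 CPM in basal controls and 46.1 to 90.7 CPM in knockout-labelled libraries, with 0 of 6 tested genes called, and to 257 to 284 CPM and 129 to 159 CPM in luminal controls and knockout-labelled libraries. Most of the luminal sum was Cd14, a receptor for bacterial lipopolysaccharide, at 239, 258 and 196 CPM among controls beside 128, 111 and 114 CPM with the knockout label. Csf1r, the receptor of macrophage growth, went the other way, at 0.935, 1.02 and 3.82 CPM beside 6.57, 5.36 and 13.8 CPM, and 3 of the 6 tested genes had log2 folds above 0. The defining macrophage marker Adgre1 was at 0 to 0.554 CPM over all libraries. Lymphocyte markers summed to at most 6.51 CPM in any library. Adipocyte markers summed to 28.1 to 86.9 CPM in basal controls and 72.7 to 118 CPM in basal knockout-labelled libraries. Of their 3 tested genes, 0 were called in basal cells, with a median log2 fold of 1.1. At an unadjusted p under 0.05, 2 of the 3 were higher there, against 6.58% of all tested genes. The defining marker Adipoq was at 0 to 0.268 CPM throughout. Schwann cell markers summed to 426 to 577 CPM in basal controls and 326 to 359 CPM in basal knockout-labelled libraries. The fall in that sum was in Scn7a, at 444, 364 and 254 CPM beside 126, 159 and 135 CPM. The other 5 of the 6 log2 folds were above 0. Of the 6, 1 was called higher in basal cells, against 0.611% of tested genes, and the median log2 fold was 1.02. Basal and myoepithelial markers had 0 of 12 called in basal cells, with a median of -0.09 and 0 at an unadjusted p under 0.05. Of the 12 luminal markers, 1 was called higher in basal cells, 5 were higher and 1 lower at an unadjusted p under 0.05, and 4 had groups apart and higher. Over all tested genes 0.611% were called higher, 6.58% were higher at that unadjusted p and 8.15% were apart and higher. The keratin Krt19 was at 74.1, 45.5 and 83.4 CPM beside 262, 199 and 149 CPM. The part of the luminal markers in the basal result was not tested.

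**Figure D4:**
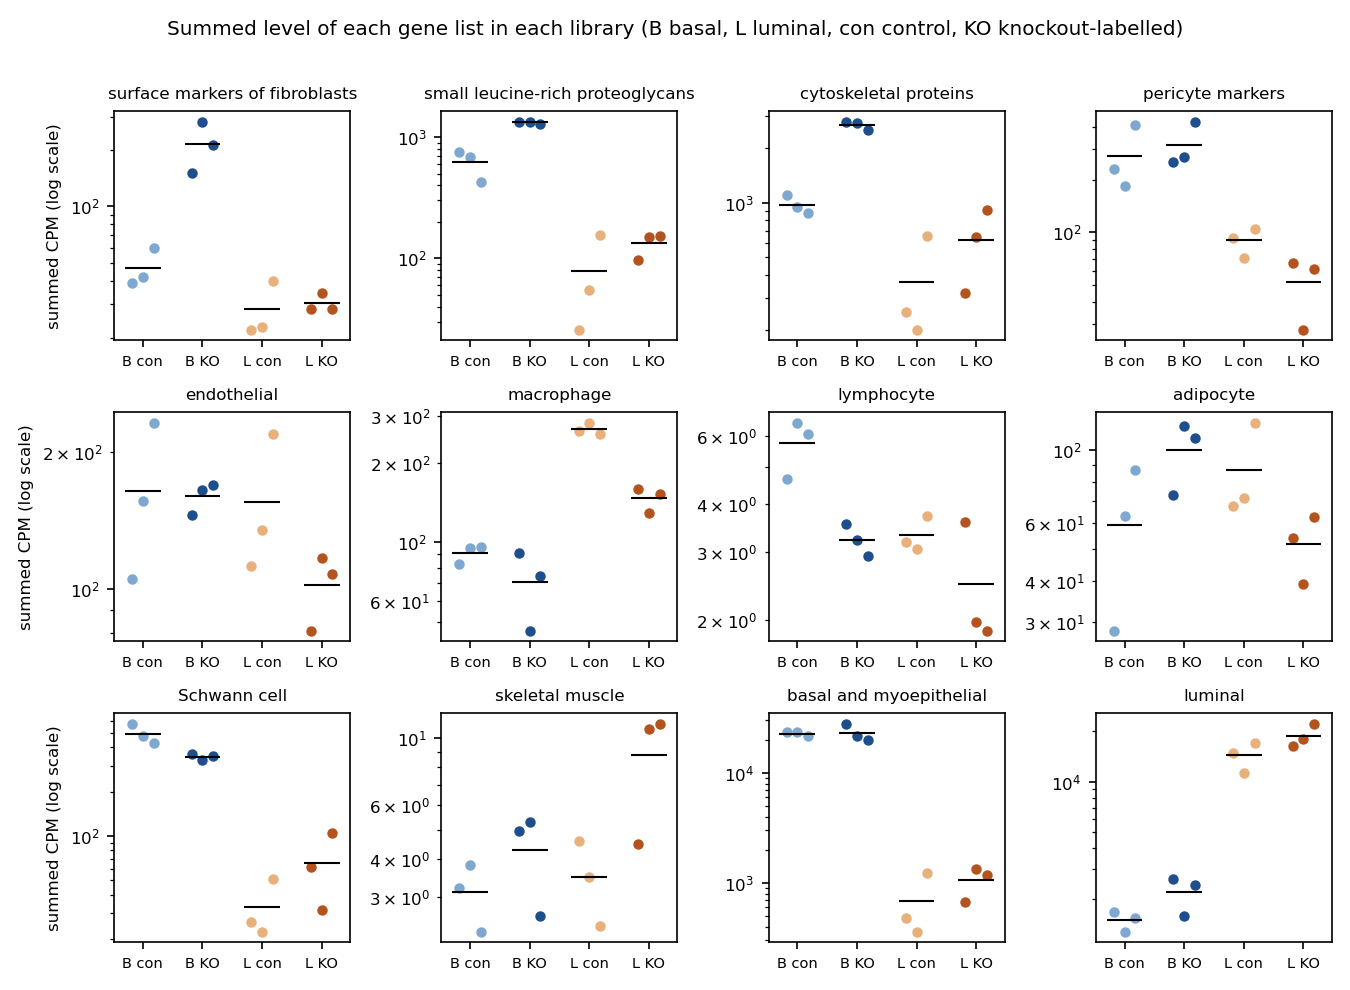
Summed CPM, on a log scale, of 4 role groups of the markers and of 8 lists for other cell types in each library, with bars for the group mean. Surface markers, leucine-rich proteoglycans and the cytoskeletal pair lay higher in all 3 basal knockout-labelled libraries than in any basal control, and the endothelial and pericyte sums overlapped between the basal genotypes. The role groups not drawn also overlapped. Elastic fibre and microfibril proteins summed to 367 to 916 CPM in basal controls and 679 to 952 CPM in knockout-labelled libraries. Matricellular and secreted proteins summed to 2170 to 4090 and 2650 to 3900 CPM. Matrix proteases and their inhibitor summed to 496 to 704 and 563 to 913 CPM. The pericyte sum was 184 to 409 CPM in basal controls and 251 to 429 CPM in basal knockout-labelled libraries. Mcam made up most of it in each basal library, at 177, 133 and 373 CPM beside 153, 139 and 372 CPM. The overlap of the pericyte sum therefore follows Mcam and does not describe the other pericyte markers.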

How the data were processed

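RNA from 12 libraries of basal or luminal mammary epithelial cells was deposited by the authors as whole-number counts of reads per gene, without normalization, next to gene length in bases. Per the submitters' processing notes, CASAVA 1.8.2 and featureCounts were used with mm10. As to aligner, annotation and strand setting, none is given in the sources used here. The tables per library and the table of all libraries held equal values (0 differences).

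Counts were tested in R 4.3.3 with edgeR 4.0.16, using the quasi-likelihood F test, TMM scaling and the default filter by group. The model had 4 group means over 12 libraries with 8 residual degrees of freedom. Benjamini-Hochberg adjustment ran over 14903 genes, and adjusted p-values under 0.05 were called. A standard error is the log2 fold divided by the root of F. Levels are counts per scaled library (CPM, with TMM factors). Positions and promoters are from RefSeq on GRCm38. For data simulated from these libraries, 80 of 100 genes with a 4-fold change and 19 of 100 with a 2-fold change were recovered in basal cells, with 4 false calls. In luminal cells the numbers were 79, 16 and 4. The changed genes were drawn only from genes above a minimum mean count in the knockout-labelled group, and each count was drawn independently. The recovery of markers with few counts was therefore not measured.

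The members and lists were chosen with earlier results of these data known. Values in every library are given for defining markers, for markers called in a genotype comparison, and for the lowest p of each role group. Same-numbered libraries deviated together (r = 0.36, 0.30 and 0.53 between luminal genotypes, and 0.31, 0.42 and 0.47 between cell types in controls), so there the numbers pair the libraries. They did not all do so between basal genotypes (-0.09, 0.36 and 0.13) or between cell types with the knockout label (0.09, 0.42 and 0.42). All results given are from the model without a block, and the block is given as an alternative. Replicates differed by more than sampling noise (chi-square per degree of freedom 12.2 to 142). They are described as biological replicates without naming animals. Another scaling, other filters, DESeq2 1.42.0, limma 3.58.1 with and without sample weights, the compared groups alone, a block for replicate number and omission of single libraries were tried.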

Additional observations from a re-analysis of the deposited data

How the results depend on the processing

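In basal cells 100 genes and 3 markers were called by edgeR. The genes called were 59 with library size alone, 417 with DESeq2, 1141 with limma-voom and sample weights, 151 with the compared groups alone and 17 to 142 on leaving out 1 library. Markers called were 15 with DESeq2, 8 with limma-voom, 24 with sample weights, 14 with the compared groups alone and 0 to 5 on leaving out 1 library (0 without basal control replicate 1 or basal knockout-labelled replicate 2, and 1 without basal control replicate 2 or knockout-labelled replicate 1 or 3). Pdgfra lost its call without basal control replicate 1 or 2 or basal knockout-labelled replicate 2 or 3, and Pcolce without basal control replicate 1 or basal knockout-labelled replicate 1 or 2. Dpp4 lost its call on leaving out any library but basal control replicate 3 or luminal control replicate 2 or 3, and with library size alone or the compared groups alone. With the replicate block, 236 genes and 9 markers were called in basal cells, 1097 genes and 0 markers in luminal cells (451 genes without the block), and 106 genes and 0 markers for the interaction (41 genes without it). Between cell types the block gave 6528 genes and 21 markers in controls (4942 and 18 without it) and 7634 genes and 36 markers with the knockout label (6044 and 36 without it).

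In luminal cells, genes called were 1089 with DESeq2, 1473 with sample weights, 199 with the compared groups alone and 127 to 716 on leaving out 1 library (716 without basal control replicate 3, and under 200 without luminal control replicate 1 or 2 or luminal knockout-labelled replicate 2 or 3). Markers called were 3 with DESeq2, 1 with sample weights and 0 to 1 on leaving out 1 library. The median of the markers was 0.01 with sample weights and ran from -1.28 to 0.33 on leaving out 1 library. For the interaction, genes called were 356 with DESeq2, 22 with limma-voom, 425 with sample weights and 10 to 86 on leaving out 1 library. Markers called were 9, 0, 3 and 0 to 1, and the median ran from -2.17 to -1.26. Between cell types, sample weights gave 7461 genes, 29 markers and a median of -2.48 in controls, where leaving out 1 library gave -2.32 to -0.98, and a median of -4.92 with the knockout label.

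Signs turned for many of the named markers, none of which edgeR called in the comparison where its sign turned. In basal cells Postn was -0.03 with library size alone and Fbn1 -0.15 with sample weights. With sample weights the luminal log2 folds were 0.14 for Thy1, 0.16 for Pi16, 0.21 for Lum, 0.59 for Ogn, 0.44 for Dpt and 1.85 for Mmp3, and the interaction was 0.34 for Dcn and 0.32 for Sparc. On leaving out 1 library, basal log2 folds ran from -0.07 to 0.41 for Fbn1, -0.23 to 0.26 for Postn and -0.12 to 0.80 for Rgs5. Luminal ones ran from -0.13 to 0.30 for Pdgfra, -1.35 to 0.63 for Thy1, -1.32 to 0.75 for Pi16, -2.03 to 0.36 for Lum, -1.40 to 0.82 for Ogn, -1.83 to 0.01 for Fbn1, -1.18 to 0.23 for Efemp1, -1.37 to 1.07 for Dpt, -1.28 to 0.44 for Fn1, -0.05 to 0.51 for Des and -0.01 to 0.41 for Pcolce. Interactions ran from -0.48 to 0.73 for Abcc9, -1.10 to 0.31 for Dcn and -1.15 to 0.25 for Sparc. The causes were not tested. Library size alone moved the median of all genes by over 0.1 in 1 comparison, to 0.15 between cell types with the knockout label. The compared groups alone could not be used for the interaction, which needs all 4. With 3 libraries a group and the spread between replicates of these data, most 2-fold changes in the simulated data were missed. Other numbers of libraries were not simulated.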

Other observations

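Genes outside the 38 markers were called in the same libraries. Foxa1, a transcription factor of luminal cells, rose in basal cells from 8.29, 6.51 and 13.8 CPM to 46.0, 29.1 and 40.8 CPM (log2 fold 2.02, SE 0.28, adjusted p = 0.0107 in edgeR). In basal cells 1 of 12 luminal markers was called higher, against 0.611% of tested genes. At an unadjusted p under 0.05, 5 were higher there, against 6.58%. Trp63, the transcription factor of basal cells, rose in luminal cells from 4.95, 2.03 and 15.7 CPM to 27.5, 71.7 and 58.4 CPM (log2 fold 2.80, SE 0.58, adjusted p = 0.0253), the 1 of 12 basal markers called there. The salivary gene Smr3a fell in both cell types, with log2 folds of -5.89 (adjusted p = 0.0312) and -9.47 (adjusted p = 0.00321), while Prh1, whose reads related copies could share, rose in luminal cells with a log2 fold of 9.23. Skeletal muscle markers summed to at most 11.1 CPM and red blood cell markers to at most 3.65 CPM in any library.

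A pair of genes in the further fibroblast list were singled out after their values were seen. For Gpx3, a secreted peroxidase, the basal log2 fold was 2.27 and the luminal one 2.26. For Ly6a, the surface antigen Sca-1, they were 0.80 and 2.46, and none of these was called. Ly6a stood at 618 to 809 CPM in the luminal knockout-labelled libraries and at 70.6 to 233 CPM in luminal controls.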
